A study of Mus musculus with 6 samples.

Results

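Transcripts of 10 oxygen-dependent demethylase genes were followed in 6 libraries of cells selected from mouse liver by CD31, a surface protein of endothelium. The 10 genes are the autosomal histone demethylases Kdm2a, Kdm2b, Kdm3a, Kdm3b, Kdm4a, Kdm4b, Kdm4c and Kdm6b, which carry a Jumonji C (JmjC) catalytic domain, and the DNA demethylases Tet2 and Tet3. They were chosen by name, and all 10 were among the 13595 genes of the deposited table. The cells came from 4-week-old C57BL6/J mice, were grown in culture, and were then given 100 µM indoxyl sulfate during 6 hours of hypoxia and nutrient deprivation. Indoxyl sulfate is a tryptophan metabolite and a ligand of the aryl hydrocarbon receptor (AHR), a transcription factor that small molecules switch on. The 3 male-labelled libraries and the 3 labelled female received the same treatment and carry replicate numbers 4, 5 and 6, so they give 1 contrast, that of sex. What indoxyl sulfate or low oxygen alone does was not analysed here. The labels do not say whether a replicate is a mouse, an isolation or a culture, and the p-values below measure only the spread between these libraries, which may be technical.

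JmjC and TET enzymes use molecular oxygen, iron and 2-oxoglutarate to hydroxylate a methyl group, which is then lost from a histone lysine or processed further on DNA cytosine. Their need for oxygen ties chromatin marks to oxygen supply, and several of them, Kdm3a and Kdm4b among them, are textbook targets of the hypoxia-inducible factors (HIF), the transcription factors that accumulate in low oxygen. In endothelium, where oxygen varies with blood flow, they are studied as modifiers of the response to hypoxia. Different members act on different marks: KDM2 enzymes on methylated H3K36, KDM3 enzymes on mono- and dimethylated H3K9, KDM4 enzymes on trimethylated H3K9 and H3K36, KDM6B on H3K27, and TET enzymes on 5-methylcytosine in DNA.

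Reads summed over the table's genes ran from 22303270 to 31189363 per library, and each library labelled female (at most 25329421 reads) was shallower than each labelled male (at least 27811890). A value is a normalized read count, that is, the reads of a gene divided by 1 factor per library, on which 3 reads are worth 0.106 to 0.142. Male replicate 4 stood apart within its group: the chi-square statistic per gene, near 1 for sampling noise alone, was 43.6 and 45.4 against its fellow replicates, whereas the other pairs within a group gave 4.35 to 9.59. The sex labels were only partly borne out. Xist, the RNA of X inactivation, was at 234 to 324 in the female-labelled libraries and 0.124 to 0.458 in the male-labelled ones, but the Y-linked JmjC genes Kdm5d and Uty were read at 17.6 to 20.8 and 22.2 to 27.7 in the female-labelled libraries, against 30.7 to 37.5 and 23.7 to 32.0 in the male-labelled ones. The groups overlapped for Uty, as they did for the Y-linked helicase gene Ddx3y (48.5 to 57.7 against 47.2 to 76.3). They lay apart for Kdm5d (log2 fold change -0.83) and for the Y-linked Eif2s3y (29.4 to 30.2 against 55.3 to 61.2, -0.94), both called lower. Reads of Y-linked genes in libraries labelled female go against the label, and every direction below rests on the labels as given. Of 9 tested endothelial markers, limma called 8 lower and 0 higher (also 0 higher at an unadjusted p under 0.05 and by edgeR, DESeq2 and voom) in the female-labelled libraries. Their median log2 fold change was -2.23. Pecam1, the gene of CD31, was at 73.9 against 407 on average, female first (-2.44). The summed level over 10 genes was 808.2 to 840.6 against 1958 to 2036, with Cdh5 (387 against 924) its largest part. Cldn5, an endothelial junction gene, had 3 reads or fewer in each library labelled female. Of 9 tested stellate, mural and fibroblast markers, 4 were higher and 5 lower, with a summed level of 2935 to 3648 against 898.9 to 1066. The contractile genes Acta2 (means of 1690 against 78.6), Tagln (1060 against 52.1) and Myh11 (124 against 1.65) and the filament gene Des were the higher ones, and Pdgfrb (14.3 against 133), Pdgfra, Dcn, Lum and Col1a1 the lower ones. Of 5 markers of liver sinusoidal endothelium, Lyve1 (498 against 4.98 on average, male first, log2 fold change -6.39) and Stab1 (15.7 against 1.95, -2.49) were called lower in the female-labelled libraries. The other markers, Stab2, Clec4g and Fcgr2b, had 3 reads or fewer in each library labelled male, as Clec4g and Fcgr2b had in each labelled female. The 4 cholangiocyte markers summed to 167.1 to 221.0 against 706.7 to 876.3. Krt19 and Sox9 carried this sum and were called lower, Krt7 was called higher (9.19 against 1.84 on average, log2 fold change 1.86), and Epcam was near 0. The hepatocyte markers Alb, Apoa1, Ttr and Hnf4a were low in each library (at most 1.068 in sum). Those of macrophages and leukocytes summed to 13.15 to 15.73 against 7.506 to 9.99, and the 2 tested ones, Cd68 (log2 fold change 0.48) and Csf1r (0.56), were called higher. Lyz2 was at most 1.41 and Ptprc at most 0.332, both in libraries labelled female, and Emr1 had 0 reads in each library. The part of these marker differences in the results below was not tested.

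Transcripts of 7 of the 10 demethylase genes were lower in the female-labelled libraries, 1 was higher and 2 did not pass the test. The 7 were Kdm4b, Kdm3a, Tet2, Kdm4c, Kdm2a, Kdm6b and Kdm2b, at 40.9% to 64.8% of the mean in the male-labelled libraries, and the 1 was Kdm3b, at 159%. The test was limma on log2(value + 1), with p-values adjusted by the Benjamini-Hochberg method over all 12568 genes tested and a threshold of 0.05. Over those genes 69.3% were called, 34.6% lower and 34.6% higher, against 7 of 10 lower and 1 of 10 higher here. The median log2 fold change was -0.81 over the 10 genes and 0.01 over all genes tested. The values of the 2 groups did not overlap for 9 of the 10 genes, 7 lower and 2 higher, where 37.0% and 37.1% of all tested genes did not overlap in these directions, 74.1% in all. All 10 passed the filter on low values, which was a value of at least 1 in 3 or more libraries. In bulk RNA, fewer cells of a type and less RNA per cell cannot be told apart.

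**Figure D1:**
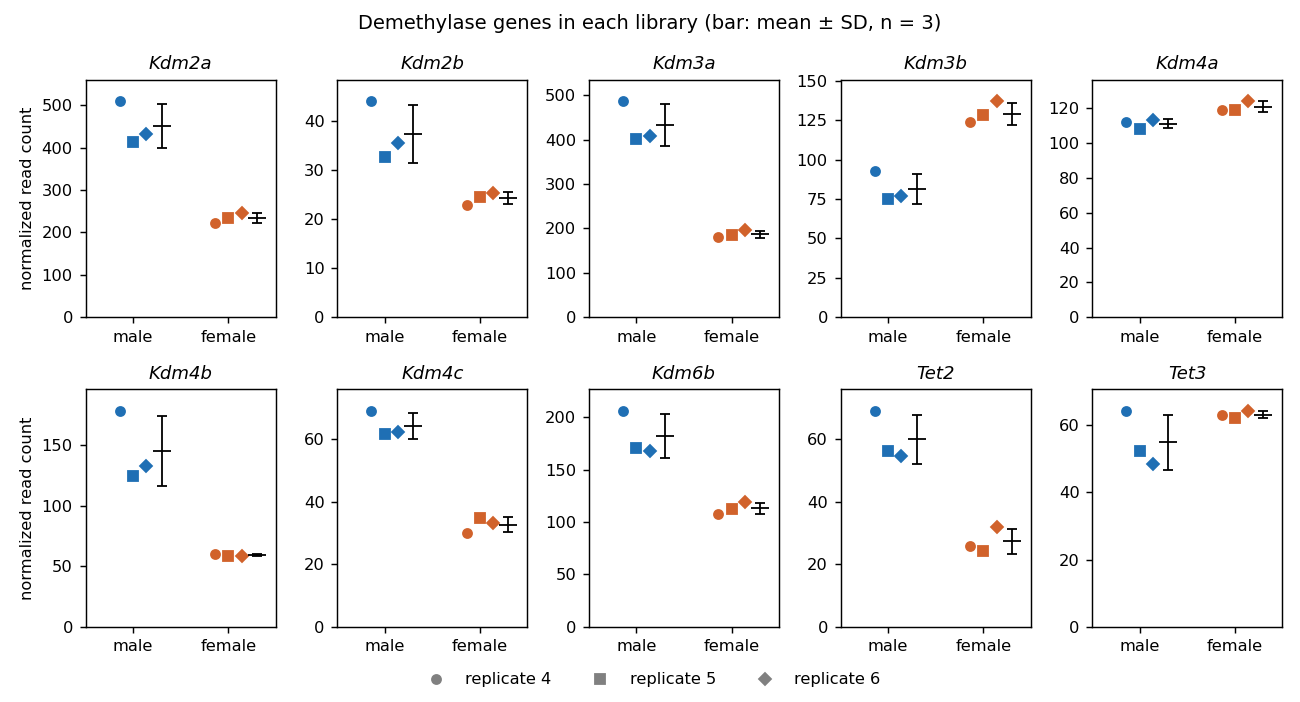
Normalized read count (y axis, from 0) of each of the 10 demethylase genes in the 3 male-labelled libraries and the 3 labelled female, marked by replicate number, with mean ± SD (n = 3) beside them. For 7 genes each library labelled female lies under each library labelled male, Kdm3b and Kdm4a lie the other way, and Tet3 overlaps because male replicate 4, at 64.1, reaches the female values.

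The promoters of the genes are shown because HIF binds the cores ACGTG and GCGTG and the AHR with its partner ARNT binds GCGTG, and both factors are addressed by the treatment. RefSeq promoter sequences (GRCm38.p6) matched 6 of the 10 genes with 12 windows of 250 bases before a transcription start. Kdm2a, Kdm3b, Kdm4b and Kdm6b had no window, so the 1 gene called higher, Kdm3b, is not covered. No relation between matches and calls was tested. Capitals mark every ACGTG or GCGTG on either strand, and the strand printed is that of the gene. Kdm3a (chr6:71632918-71633167, minus strand), Kdm4c (chr4:74251629-74251878, plus strand) and Tet2 (chr3:133544391-133544640, minus strand) were lower in the female-labelled libraries, and Kdm4a (chr4:118180044-118180293, minus strand) and Tet3 (chr6:83441679-83441928, minus strand) were not called. Where one of these 5 genes has several windows, the one with the most matches is printed.
Kdm3a: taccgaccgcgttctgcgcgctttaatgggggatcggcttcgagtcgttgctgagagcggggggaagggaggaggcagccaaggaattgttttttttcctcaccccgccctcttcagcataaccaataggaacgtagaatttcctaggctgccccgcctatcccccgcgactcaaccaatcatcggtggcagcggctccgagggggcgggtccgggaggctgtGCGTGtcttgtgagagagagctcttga
Kdm4c: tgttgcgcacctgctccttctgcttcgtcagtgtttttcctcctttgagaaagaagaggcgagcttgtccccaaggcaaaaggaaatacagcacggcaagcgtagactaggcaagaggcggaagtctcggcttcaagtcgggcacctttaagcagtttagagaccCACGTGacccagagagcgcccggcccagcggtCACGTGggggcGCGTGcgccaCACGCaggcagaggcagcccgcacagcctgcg
Tet2: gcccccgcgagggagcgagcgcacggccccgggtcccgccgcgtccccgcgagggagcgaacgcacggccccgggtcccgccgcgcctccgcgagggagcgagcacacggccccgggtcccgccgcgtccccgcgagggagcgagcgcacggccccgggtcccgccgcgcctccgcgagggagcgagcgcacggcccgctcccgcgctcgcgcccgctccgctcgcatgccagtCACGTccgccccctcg
Kdm4a: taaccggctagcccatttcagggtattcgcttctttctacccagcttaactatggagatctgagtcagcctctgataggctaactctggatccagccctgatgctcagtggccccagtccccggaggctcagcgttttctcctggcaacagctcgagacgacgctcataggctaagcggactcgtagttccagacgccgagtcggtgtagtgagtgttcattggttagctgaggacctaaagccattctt
Tet3: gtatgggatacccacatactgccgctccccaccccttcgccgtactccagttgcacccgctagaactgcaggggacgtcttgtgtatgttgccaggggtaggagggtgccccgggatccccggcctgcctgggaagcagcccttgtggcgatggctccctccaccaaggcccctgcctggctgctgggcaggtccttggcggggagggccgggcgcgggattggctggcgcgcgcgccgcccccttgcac
The printed Kdm3a window held 1 match, a GCGTG that begins 27 bases before the start, and the other windows of this gene held none. The printed Kdm4c window held 6 matches between 85 and 32 bases before the start, of which 4 came from 2 copies of the palindrome CACGTG, each read as ACGTG on both strands, and its other window held none. Tet2 held 1 match, 16 bases before the start. No match was present in the Kdm4a or Tet3 window. The 4 windows of Kdm2b, not printed, held 1 or 2 GCGTG each and no ACGTG. Of the 12 windows, 2 held ACGTG and 6 held GCGTG, while 16.6% and 28.2% of all 32851 promoter windows of this length did, and 7 of 12 held either, against 38.6%. Kdm2b alone gave 4 of the 6 windows with GCGTG and 4 of the 7 with either, so the windows are not independent. A pair of the Kdm2b windows overlap and hold the same GCGTG matches, so these are counted in both. These letters are a description of the windows and not binding sites.

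Kdm2a and Kdm2b bind unmethylated CpG islands through a CXXC zinc finger and remove H3K36 methylation, and Kdm2b also recruits a variant Polycomb complex, PRC1.1. Kdm2a (chromosome 19) was read at 509, 412 and 431 in male replicates 4, 5 and 6 and at 221, 233 and 245 in the female ones. The lowest male value lay well above the highest female one, with a log2 change of -0.94 (SE 0.09, adjusted p 2.42e-05 in limma). Kdm2b (chromosome 5), the weaker of the pair, was at 44.1, 32.7 and 35.6 against 22.9, 24.5 and 25.4. Its groups did not overlap either, at a log2 change of -0.60 (SE 0.11, adjusted p 0.00159 in limma), the smallest of the 7 decreases in this fit. With GC and length trends removed it was -0.53, beside -0.50 for Kdm6b. Of the 50-base words of the Kdm2b transcript, 12.5% also occur in other annotated genes, and annotated genes overlap its exons on both strands, so its value is uncertain to that extent. The log2 ratio of Kdm2a to Kdm2b within a library was 3.50, 3.62 and 3.56 in the male-labelled libraries and 3.22, 3.20 and 3.22 in the female-labelled ones. The difference of -0.35 was smaller than for the other pairs below, Kdm4b with Kdm4c excepted.

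Among the genes whose products work with Kdm2b in PRC1.1, limma called 4 of 9 (44.4%) lower and 0 higher, beside 34.6% of all tested genes in each direction. The count higher was also 0 at an unadjusted p under 0.05 and by edgeR, DESeq2 and voom, and was 2 without male replicate 4, 3 under quantile normalization and 1 with the GC and length trend removed. Bcor, an X-linked corepressor of the complex, was at 299 ± 46.1 in the male-labelled libraries and 57.4 ± 2.96 in the female-labelled ones (SD, n = 3), a log2 change of -2.35 (SE 0.11, adjusted p 5.50e-07 in limma), a wider gap than that of Kdm2b. Pcgf1, its Polycomb ring finger subunit, was at 4.35 ± 0.545 against 2.29 ± 0.284 (SD, n = 3).

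The 2 KDM3 genes moved in opposite directions. Kdm3a (chromosome 6), the HIF target and H3K9 demethylase whose promoter is printed above, was at 486, 402 and 407 in the male-labelled libraries and at 180, 186 and 196 in the female-labelled ones. That is 43.3% of the male mean, a log2 change of -1.20 (SE 0.08, adjusted p 4.80e-06 in limma), the smallest adjusted p of the 10 genes. Kdm3b (chromosome 18), which shares its substrate, was at 92.6, 75.0 and 77.1 against 124, 128 and 137. Each library labelled female lay above each labelled male, with a log2 change of 0.66 (SE 0.09, adjusted p 0.000218 in limma). Kdm3b was the 1 gene of the 10 called higher, and an annotated gene on the opposite strand overlaps its exons.

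Within a library the log2 ratio of Kdm3a to Kdm3b was 2.38, 2.41 and 2.39 where labelled male and 0.54, 0.54 and 0.51 where labelled female. The ratio was nearly constant inside each group (SD 0.01 in both, n = 3), also in male replicate 4, and differed by -1.86 between them. Per transcript length, Kdm3a made up 87.3% to 87.6% of the 2 genes' transcripts in the male-labelled libraries and 65.2% to 65.7% in the female-labelled ones. Kdm3a thus remained the more abundant of the 2 in each of the 6 libraries.

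**Figure D2:**
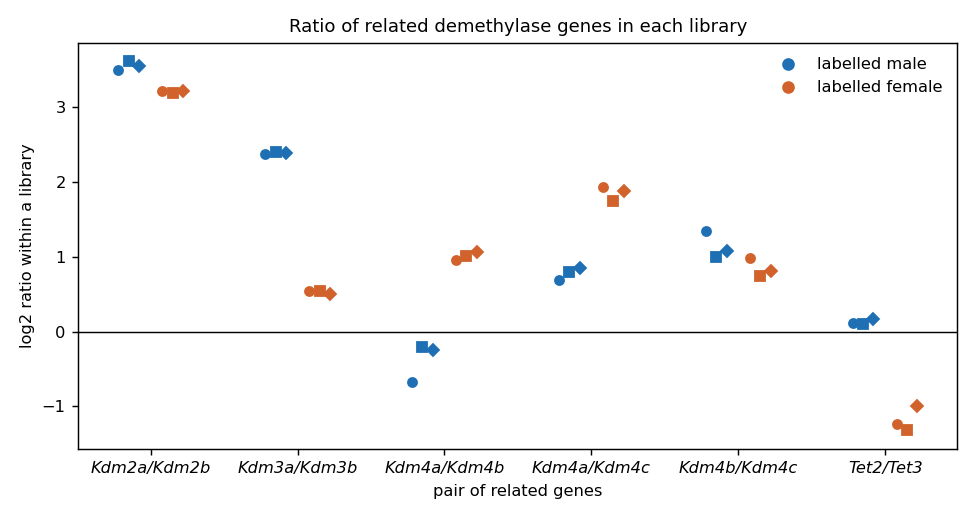
Log2 ratio of (normalized read count + 1) for 6 pairs of related demethylase genes in each library (y axis), with male-labelled libraries and female side by side and markers by replicate. The groups lie apart for each pair, most widely for Kdm3a/Kdm3b at -1.86 and only barely for Kdm4b/Kdm4c, and the sign of the ratio turns for Kdm4a/Kdm4b and Tet2/Tet3.

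The KDM4 genes, which remove trimethylation from H3K9 and H3K36, split into 2 that were lower and 1 that was not called. Kdm4b (chromosome 17), another HIF target, was at 178, 124 and 133 in the male-labelled libraries and 60.3, 58.8 and 58.6 in the female-labelled ones. Its log2 fold change of -1.26 (SE 0.12, adjusted p 3.26e-05 in limma) was the largest of the 10 in size in this fit. Its male spread was the widest of the 10 relative to the mean (coefficient of variation 19.8%, n = 3), with male replicate 4 the highest. Without male replicate 4, Kdm4b was at -1.10 and Kdm3a at -1.11. With GC and length trends removed, Kdm4b was at -1.05, behind Tet2 (-1.33), Kdm3a (-1.29), Kdm4c (-1.09) and Kdm2a (-1.08). The female values of Kdm4b lay close together. Kdm4c (chromosome 4) was at 68.9, 61.4 and 62.2 against 30.1, 34.7 and 33.0, a log2 change of -0.96 (SE 0.08, adjusted p 1.40e-05 in limma). Kdm4a (chromosome 4) was at 112, 108 and 113 against 119, 119 and 124. Its groups did not overlap, yet the log2 fold change of 0.12 (SE 0.06, 95% interval -0.0023 to 0.25, adjusted p 0.0739 in limma) did not pass the threshold. Without male replicate 4 it did (0.13, adjusted p 0.0344 in limma).

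The order of the 3 KDM4 genes differed between the groups. The log2 ratio of Kdm4a to Kdm4b was -0.67, -0.20 and -0.24 in the male-labelled libraries and 0.96, 1.01 and 1.07 in the female-labelled ones, a difference of 1.38. That of Kdm4a to Kdm4c differed by 1.08. Kdm4b and Kdm4c fell by more similar amounts, and their ratio differed by -0.30. Per transcript length, Kdm4a held 30.2% to 35.6% of the transcripts of the 3 genes in the male-labelled libraries and 54.8% to 56.3% in the female-labelled ones.

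Kdm6b (chromosome 11), also called JMJD3, removes H3K27 methylation and is known as an early responder to inflammatory and stress signals. It was read at 206, 171 and 168 in the male-labelled libraries and at 108, 112 and 119 in the female-labelled ones. The groups lay apart, with a log2 change of -0.68 (SE 0.09, adjusted p 0.000169 in limma). An annotated antisense gene overlaps its exons, and the strand of the counting is not given in the sources used here. Ezh2, the methyltransferase that sets the mark Kdm6b removes, was at 43.1 ± 2.39 in the male-labelled libraries and 88.5 ± 4.77 in the female-labelled ones (SD, n = 3), a log2 change of 1.02 (SE 0.07, adjusted p 4.80e-06 in limma). Of its partners in Polycomb repressive complex PRC2, Eed was called lower (-0.31) and Suz12 was not called (0.01), nor was its paralogue Ezh1 (0.02). Kdm6a, the X-linked H3K27 demethylase, was called higher (log2 fold change 0.41, adjusted p 0.00419 in limma).

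The TET genes, whose products oxidize 5-methylcytosine as the first step of its removal, also divided. Tet2 (chromosome 3) was at 69.1, 56.2 and 54.6 in the male-labelled libraries and at 26.0, 24.4 and 31.9 in the female-labelled ones. This is 45.7% of the male mean, a log2 change of -1.10 (SE 0.12, adjusted p 7.55e-05 in limma), and an annotated gene on the opposite strand overlaps its exons. Tet3 (chromosome 6) was at 64.1, 52.2 and 48.5 against 63.0, 62.1 and 64.2. The groups overlapped through male replicate 4, and the log2 fold change of 0.21 (SE 0.10, 95% interval -0.02 to 0.44) was not called (adjusted p 0.0971 in limma). Without male replicate 4 it was 0.32 and called higher (adjusted p 0.000625 in limma).

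The balance of the 2 TET genes turned with the label. The log2 ratio of Tet2 to Tet3 was 0.11, 0.10 and 0.17 in the male-labelled libraries and -1.24, -1.32 and -0.99 in the female-labelled ones, a difference of -1.31. Per transcript length, Tet2 made up 56.1% to 57.2% of the 2 in the male-labelled libraries and 31.8% to 37.1% in the female-labelled ones. Tet1, the remaining TET gene, was at 24.5 ± 0.728 against 4.23 ± 0.543 (SD, n = 3), a log2 change of -2.29 (SE 0.10, adjusted p 4.77e-07 in limma).

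For each of the 6 ratios the groups lay apart in all 6 libraries, though only barely for Kdm4b with Kdm4c. The two-sided exact permutation p was 0.1 for each, also after Benjamini-Hochberg adjustment over the 6 pairs, which is the smallest that 3 libraries against 3 allow. A ratio inside a library is free of library scaling but for the pseudocount, and male replicate 4 differed from its fellow replicates most in the ratios that contain Kdm4b. In single genes this library was the highest of the male ones for 9 of the 10 demethylases, Kdm4a being the exception, whereas it was the highest for 40.2% of all tested genes. Without it, 7 genes were still lower, and 3 were higher (Kdm3b, Kdm4a and Tet3).

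**Figure D3:**
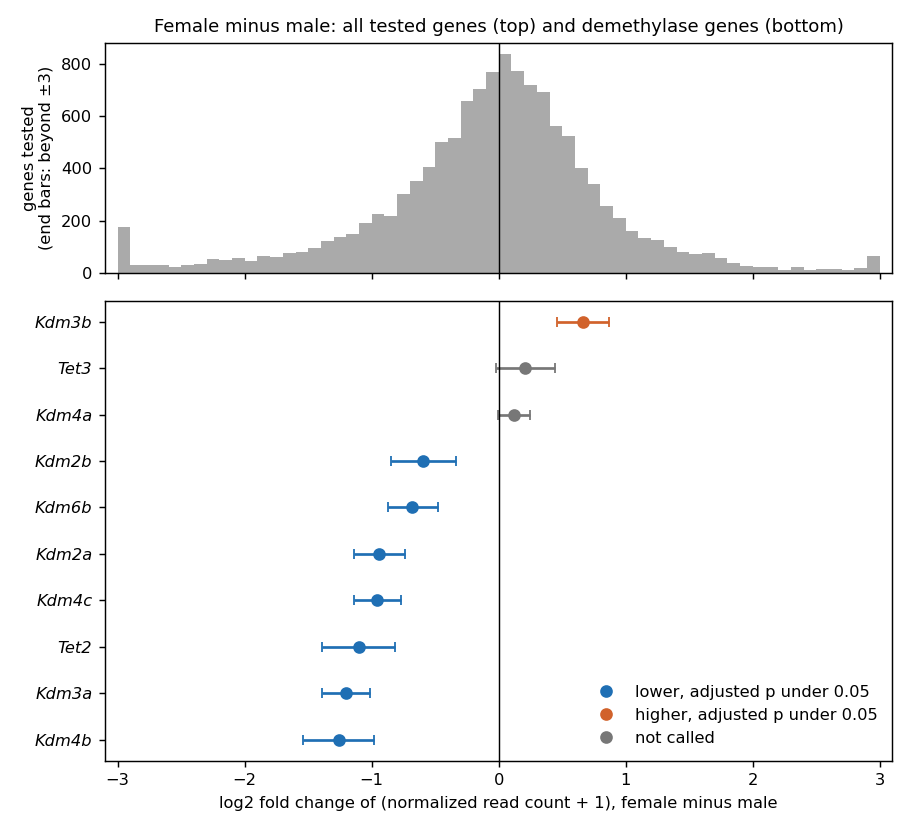
Log2 fold change of (normalized read count + 1), female minus male (x axis), for all tested genes as a histogram with end bars that collect values beyond ±3, and for each demethylase gene with its 95% interval. The 7 genes called lower lie between -1.26 and -0.60, Kdm3b lies at 0.66, and the intervals of Kdm4a and Tet3 include 0.

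Levels can be compared between genes once divided by transcript length, for which the longest coding transcript of GENCODE M21 was used. On this scale Kdm3a was the most abundant of the 10 in both groups, at 89.0 ± 9.75 normalized read counts per kb in the male-labelled libraries and 38.6 ± 1.60 in the female-labelled ones (SD, n = 3). Kdm2a followed, at 52.6 ± 5.98 and 27.2 ± 1.39. In the male-labelled libraries the next places were held by Kdm4b, Kdm6b, Kdm4a, Kdm4c, Kdm3b, Kdm2b, Tet2 and Tet3, and the ranges of neighbours overlapped for Kdm4b with Kdm6b and for Kdm2b with Tet2. In the female-labelled libraries Kdm4a came next (25.9 ± 0.644), its range overlapping that of Kdm2a, and then Kdm3b (20.3 ± 1.06). They were followed by Kdm6b, Kdm4b, Kdm4c, Tet3, Kdm2b and Tet2, with no overlap between neighbours in this lower part. Kdm4b moved from rank 3 to rank 6 and Kdm3b from rank 7 to rank 4, while Tet2 took the last place from Tet3. The sum over the 10 genes per kb was 250 to 306 in the male-labelled libraries and 157 to 170 in the female-labelled ones. The transcripts that the authors counted may be shorter or longer than those used here, which would move a gene's level in all 6 libraries alike.

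**Figure D4:**
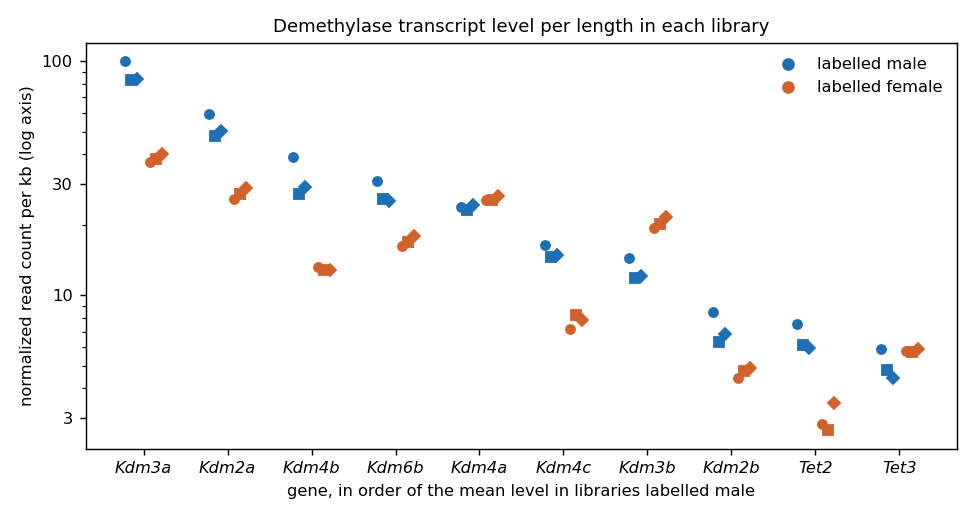
Normalized read count per kb of transcript (log y axis) of each demethylase gene in each library, ordered by the mean in the male-labelled libraries. Kdm3a is the highest in each group, at 82.9 to 100 where labelled male and 37.1 to 40.3 where labelled female, and Kdm4b drops from rank 3 to rank 6.

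Kdm4b had the largest change of the demethylases in the limma fit of all 6 libraries with the deposited scaling. It did not have the largest without male replicate 4 or with GC and length trends removed. The profile nearest to that of Kdm4b was sought among all tested genes. The measure was the distance between log2(value + 1) profiles over the 6 libraries, each centred on its own mean. The 3 nearest were Igf2r (distance 0.083), Col8a1 (0.113) and Btbd3 (0.129). Igf2r, the mannose 6-phosphate receptor that also clears insulin-like growth factor II, was at 519, 362 and 381 in the male-labelled libraries and at 172, 179 and 178 in the female-labelled ones. As in Kdm4b, its male replicate 4 was high and its female values lay close together. Among the demethylases themselves the closest pairs were Kdm2a with Kdm4c (0.148), Kdm2b with Kdm6b (0.162) and Kdm3a with Kdm4b (0.219), none of them members of one family.

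Of 18 further JmjC and TET genes in the table, 10 were called lower and 6 higher, with a median log2 fold change of -0.39. Unlike the 10 demethylases, this list holds genes of the sex chromosomes. On X lie Kdm5c, called lower, and Kdm6a and Phf8, called higher. On Y lie Kdm5d, called lower, and Uty, not called. The largest decreases were in Jarid2 (94.0 ± 19.7 against 14.4 ± 0.590, SD, n = 3, log2 fold change -2.60), a JmjC protein without demethylase activity that works with Polycomb, and in Tet1, given above. The largest increases were in 2410016O06Rik, an older symbol of Riox1 (2.22 ± 0.500 against 5.67 ± 0.340, SD, n = 3, log2 fold change 1.06), and in Kdm8 (1.06 ± 0.0922 against 3.05 ± 0.249, SD, n = 3, log2 fold change 0.97), both hydroxylases of the JmjC family and both weakly expressed. The FAD-dependent demethylases, which use oxygen but neither iron nor 2-oxoglutarate, comprised Kdm1a (log2 fold change -0.38, adjusted p 0.00103 in limma) and Kdm1b (0.25, adjusted p 0.119 in limma), of which Kdm1a was called lower. Under quantile normalization Kdm1b was called higher (0.31, adjusted p 0.0402 in limma).

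The hydroxylases that sense oxygen for HIF also divided. Egln3 (1640 ± 313 against 378 ± 29.6, SD, n = 3, log2 fold change -2.10) and Egln1 (367 ± 79.0 against 190 ± 15.3, SD, n = 3, -0.92), prolyl hydroxylases and themselves HIF targets, were called lower. Hif1an, the asparaginyl hydroxylase, was called higher (17.0 ± 4.03 against 38.6 ± 0.953, SD, n = 3, 1.16), and Egln2 was not called (0.09, adjusted p 0.417 in limma), although it was called higher with the GC and length trend removed (0.38, adjusted p 0.0165 in limma). Of 14 hypoxia reference genes, which include Egln1 and Egln3, limma called 13 lower and 0 higher (also 0 higher at an unadjusted p under 0.05 and by edgeR, DESeq2 and voom), with a median log2 fold change of -2.09, beyond the range of the 10 demethylases. Their largest decreases were in Ddit4 (-3.83), an inhibitor of mTOR signalling, and Car9 (-3.16), a carbonic anhydrase. These genes were at summed levels of 5099 to 5840 in the female-labelled libraries and 16140 to 20500 in the male-labelled ones, and the part of this difference in the demethylase values was not tested.

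Of 25 genes of histone lysine methylation, which act on H3K4, H3K9, H3K27 or H3K36 but for Dot1l, the H3K79 methyltransferase (log2 fold change 0.18, adjusted p 0.141 in limma), 10 were called higher and 5 lower, with a median log2 fold change of 0.12. The lower count was 3 without female replicate 4 and 3 under quantile normalization, where 14 were called higher. Besides Ezh2, Kmt2d, an H3K4 methyltransferase, was among the largest increases (84.5 ± 13.9 against 159 ± 9.79, SD, n = 3, log2 fold change 0.91), and the largest decreases were in its relative Kmt2c (102 ± 7.80 against 52.1 ± 2.46, SD, n = 3, -0.96) and in Smyd3 (-0.37). The call for Smyd3 was lost under quantile normalization (-0.28, adjusted p 0.0678 in limma), without male replicate 5 (-0.35, adjusted p 0.0561 in limma) and without female replicate 4 (-0.32, adjusted p 0.0633 in limma). Of 9 tested genes of DNA methylation and 5-methylcytosine processing, 4 were called lower and 1 higher, with a median of 0.11, and without male replicate 4 the count of higher ones was 4. Cxxc5 (150 ± 4.78 against 24.0 ± 2.72, SD, n = 3, -2.60) and Cxxc4 (-1.01), CXXC proteins that bind unmethylated CpG and are known to bring down TET2 protein, were the largest decreases. Ogt, the X-linked sugar transferase that binds TET proteins, was higher (84.8 ± 17.6 against 183 ± 13.9, SD, n = 3, 1.12). Of these lists, the counts are descriptions beside the 34.6% of all genes called in each direction.

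**Figure D5:**
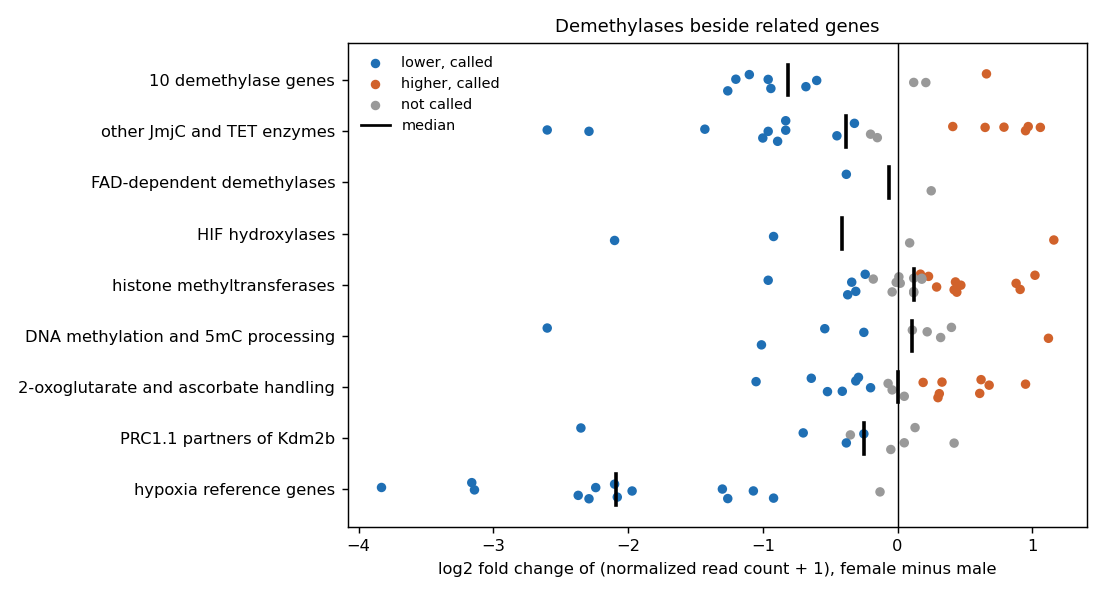
Log2 fold change of (normalized read count + 1), female minus male (x axis), for the 10 demethylase genes and 8 lists of related genes; each point is a gene, coloured by its call, and black bars are medians. The medians are -0.81 for the demethylases, 0.12 for histone methyltransferases and -2.09 for the hypoxia reference genes.

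Of 18 genes of 2-oxoglutarate, succinate, fumarate and ascorbate handling, 8 were called higher (44.4%) and 7 lower (38.9%), beside 34.6% of all tested genes in each direction, with a median log2 fold change of 0.00. Idh3a, a mitochondrial isocitrate dehydrogenase subunit, was higher (57.5 ± 2.91 against 92.7 ± 3.38, SD, n = 3, log2 fold change 0.68). Slc23a2, a transporter of ascorbate, which keeps the iron of these enzymes reduced, was lower (56.2 ± 7.73 against 26.4 ± 1.44, SD, n = 3, -1.05), and so was Idh2 (-0.64).

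The authors' deposited table calls fewer of the 10 genes. At a false discovery rate under 0.05, which 25.8% of all its genes meet, the authors' deposited table holds 5 as lower (Kdm2a, Kdm3a, Kdm4b, Kdm4c and Tet2) and Kdm3b as higher. In the authors' deposited table Kdm2b has a fold change of -1.54 with a false discovery rate of 0.109, and Kdm6b a fold change of -1.61 with a false discovery rate of 0.109. All 10 genes have the same direction in the authors' deposited table as here.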

How the data were processed

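Poly(A) RNA from 6 libraries was sequenced after Trizol and column extraction and Kapa HyperPrep library construction, per the labels' protocols. The submitters' processing notes name Bowtie2, RSEM, edgeR and the build mm39, without roles or versions. The deposited signal is a normalized read count: in each column 100% of values were whole multiples (tolerance 0.01) of the smallest value above 0, which gave back whole reads. The rule behind the authors' selection of detectable genes is not given in the sources used here. A score deposited beside it is the authors' signed fold change, female against male, and their p-value and false discovery rate follow, per the file headers. Columns were assigned by title, and 0 were left without a sample.

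Genes reaching a value of 1 in 3 or more libraries were tested with limma 3.58.1 (R 4.3.3, eBayes with trend) on log2(value + 1), a scale that understates changes of weak genes. The fit was tested on simulated data. The members and lists were chosen with earlier results of these data known. Alternatives were median-ratio factors, filters, a pseudocount of 0.1, quantile normalization, the replicate block, edgeR 4.0.16, DESeq2 1.42.0, voom, leaving out each library and, added after seeing the data, removal of GC and length trends and thinning to equal depth. All members were named, as was each related gene if its list had 8 or fewer genes, otherwise the 2 largest called changes in each direction with groups apart. Lengths and chromosomes came from GENCODE M21 (GRCm38), whose build differs from mm39, so only promoter windows carry coordinates. One related gene that the naming rule selects is not reported here. No promoter window was available for Kdm2a, Kdm3b, Kdm4b and Kdm6b, and those of Kdm2b are not printed. The labels name no batch; one aligned with sex and sex itself cannot be told apart.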

Additional observations from a re-analysis of the deposited data

How the results depend on the processing

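Of 170 values recomputed for the 10 demethylase genes over 17 alternatives, 165 kept direction and call. The remaining 5 were of Kdm4a and Tet3, which were not called in the first place and were called higher under quantile normalization (0.19 and 0.27), without male replicate 4 (0.13 and 0.32, within ranges of 0.10 to 0.14 and 0.12 to 0.32 over the fits that leave out a library) and, for Kdm4a, with GC and length trends removed (0.22). The count of members called lower was 7 under each of the 17 alternatives. The count called higher, 1, was 3 under quantile normalization and 2 with GC and length trends removed, and ran from 1 to 3 when a library was left out, 3 being without male replicate 4; the causes were not tested. The median log2 fold change of all genes was 0.080 under quantile normalization and 0.014 with the deposited scaling. The count of genes called, 8704, ran from 8236 (at least 10 reads in every library) to 9085 (no filter), with 8975 by edgeR on the recovered reads, and from 7373 to 9113 when a library was left out. The 6 ratios of related genes kept their direction under each alternative run. Replicate numbers were no sign of pairing: across genes, same-numbered libraries deviated from the means of their groups with correlations of -0.09, -0.03 and -0.17. A fit with the replicate block called 8314 genes, and no demethylase gene changed its call. Depth was not limiting for these 10 genes, each of which had at least 534 reads in every library.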
